A study of Homo sapiens with 4 samples.

Results

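The 10 genes described here encode the BCL2 family proteins that decide over mitochondrial cell death: the guardians MCL1, BCL2L1 and BCL2, the effectors BAX and BAK1, and the BH3-only genes BAD, PMAIP1, BID, BCL2L11 and BBC3. They were chosen by gene symbol, and all 10 were found among the 44591 rows of each expression file, of which 19233 are protein-coding. The values came from RNA sequencing of HaCaT cells, an immortal human keratinocyte line that arose without a viral oncogene. The 4 libraries, replicates 1 to 4, were all from untreated cells and formed 1 group with no comparison group. The labels give Dulbecco's modified Eagle medium with 12% fetal bovine serum and total RNA as the extracted molecule. For HaCaT culture the study's methods give a lower share of serum. The study ran them to rank the sirtuin genes of keratinocytes, and the levels below describe the death regulators of the same untreated cells.

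BCL2 family proteins control whether the outer mitochondrial membrane stays closed. The guardians bind the effectors and keep them from forming pores, and the BH3-only proteins relieve that block or activate the effectors directly. Once BAX or BAK1 opens the membrane, cytochrome c leaves the mitochondrion, joins APAF1 in the apoptosome and switches on the caspases. Within epidermis, MCL1 and BCL-XL, the product of BCL2L1, are well known for keeping keratinocytes alive.

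The members share the BH3 motif, the stretch of helix by which one family member docks into the groove of another. Its coding sequence is shown for each member because it is what joins the 3 roles into one family. Each sequence is 27 bases long, 5′ to 3′ on the coding strand, taken from the GENCODE release 29 transcripts, with coordinates on GRCh38. The capitals mark the codons of the first leucine, of the small residue at the fifth place (glycine, alanine or serine) and of the aspartate after it.
MCL1 (chr1:150578868-150578894, minus strand, exon 1): TTAcgacgggttGGGGATggcgtgcag
BCL2L1 (chr20:31721925-31721951, minus strand, exon 2): CTGagggaggcaGGCGACgagtttgaa
BCL2 (chr18:63318352-63318378, minus strand, exon 1): CTCcgccaggccGGCGACgacttctcc
BAX (chr19:48955787-48955813, plus strand, exon 3): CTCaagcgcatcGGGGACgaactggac
BAK1 (chr6:33575390-33575416, minus strand, exon 4): CTCgccatcatcGGGGACgacatcaac
BAD (chr11:64271625-64271651, minus strand, exon 2): CTCcggaggatgAGTGACgagtttgtg
PMAIP1 (chr18:59902673-59902699, plus strand, exon 2): CTCaggagatttGGAGACaaactgaac
BID (chr22:17739418-17739444, minus strand, exon 4): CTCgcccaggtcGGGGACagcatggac
BCL2L11 (chr2:111150103-111150129, plus strand, exon 3): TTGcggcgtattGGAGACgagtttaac
BBC3 (chr19:47226582-47226608, minus strand, exon 3): CTGcggcggatgGCGGACgacctcaac
All of these stretches lie in coding exons. The pattern, searched in the translated coding sequence, was a leucine, then arginine, alanine or lysine, 2 residues of any kind, the small residue, the aspartate, then aspartate, glutamate, lysine, serine or glycine, and 2 further residues of any kind. It was set with the members' motifs in view, so the match in 10 of 10 members is no finding, and 657 of 19644 protein-coding genes (3.34%) hold a match in their longest coding sequence. Not every transcript of a member carries the stretch. It is absent from 10 of the 17 coding transcripts of BCL2L11, 7 of the 11 of BID, 3 of the 7 of BAX, 2 of the 4 of BBC3 and 2 of the 6 of BAD. BCL2L1 and PMAIP1 each have 1 transcript without it, of 9 and 2, and MCL1, BCL2 and BAK1 have none. Counts per gene do not separate transcripts, so the values below cover forms with and without the motif, and also the long and short forms of BCL2L1 and MCL1.

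Levels are given as TPM, the count per gene length scaled to the same total over the protein-coding genes of a library, which allows genes of different length to be compared. The total count was 17056035 to 19745170 in replicates 2 to 4 and 73082279 in replicate 1, which stood apart: 76.1% of its counts fell on protein-coding genes against 95.3 to 96.4% in the others. The limit that a count of 0 allows, 3 counts, was 0.0410 to 0.176 CPM (counts scaled to the library total). Results of the members that rest on replicate 1 are therefore also given without it, or with its value beside those of the other replicates. For the genes of the lists this was done for some only. The keratinocyte markers had a summed TPM of 8982 to 14696. All 8 had a mean TPM above 1, as did 12165 of the 19233 protein-coding genes. Of the markers of other cells, 2 of 6 for fibroblasts (COL1A1 and LUM), 1 of 4 for melanocytes (PMEL), 1 of 4 for immune cells (CD68) and 0 of 3 for endothelial cells reached that level, with summed TPM of 5.20 to 9.60, 1.36 to 3.52, 8.31 to 43.9 and 0.859 to 2.36. TYR and PECAM1 were at 0 counts in every library. Since these are bulk samples, a lower value may stand for fewer cells or for less RNA per cell, and the 2 cannot be told apart. The labels do not say whether the replicates were separate cultures, while the study's text calls them biological repeats.

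The guardians spanned the whole range of the family. MCL1, a short-lived guardian, was the highest member in 4 of 4 replicates and BCL2, the founding member of the family, the lowest in 4 of 4. MCL1 had a TPM of 252, 227, 203 and 187 in replicates 1 to 4 and averaged 217 ± 28.3 (SD, n = 4). Its values lay close together, with a highest over lowest ratio of 1.35, and its mean stood at percentile 94.4 of the 12165 protein-coding genes with a mean TPM above 1. In hg19, the build of the files, MCL1 lies on the minus strand at chr1:150547027-150552214. BCL2L1 (chr20:30252255-30311802, minus strand) had a TPM of 86.6, 164, 107 and 101, a mean of 115 ± 34.1 (SD, n = 4) and percentile 87.8. Replicate 2 was its highest and replicate 1 its lowest, and the mean over replicates 2 to 4 was 124 ± 35.0 (SD, n = 3). With the annotated exon union as the length of every gene, the mean over 4 replicates was 184 ± 51.1 (SD, n = 4). The length of BCL2L1 itself moved only from 3368 to 3314 bases, so most of the rise came from the new lengths of other genes.

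BCL2 (chr18:60790579-60986613, minus strand) had a TPM of 0.342, 0.136, 0.218 and 0.345, from counts of 55, 6, 13 and 17. The mean was 0.260 ± 0.101 (SD, n = 4), and 13414 protein-coding genes had a higher one. The exact Poisson 95% intervals, which cover counting error only since PCR copies were not told apart by molecular identifiers, ran from 0.258 to 0.445 in replicate 1, the deepest library, and from 0.05003 to 0.297 in replicate 2, the shallowest. Whether the few counts of BCL2 stand for its transcripts or for background reads was not tested. It was the only member whose mean was not above 1. MCL1 and BCL2L1 together therefore made up nearly the whole summed TPM of these 3 guardians. MCL1 gave 74.3, 58.0, 65.4 and 64.9% of that sum in replicates 1 to 4, BCL2L1 25.6, 42.0, 34.6 and 34.96%, and BCL2 at most 0.120%. The sum leaves out other guardians of the family, such as BCL2L2, which had a mean TPM of 36.9 ± 8.68 (SD, n = 4).

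**Figure D1:**
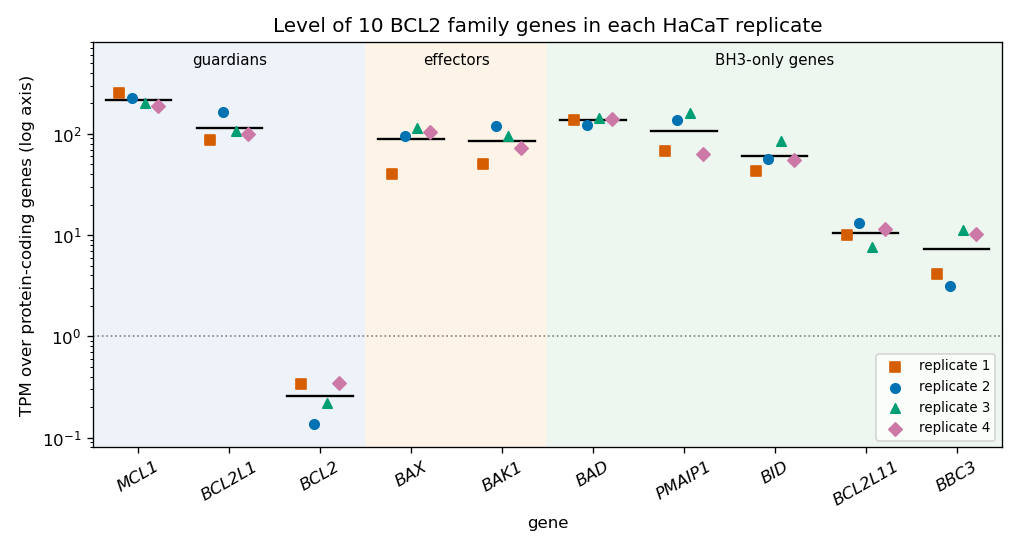
TPM of each member (log axis) in the 4 replicates, grouped by role; each symbol is 1 replicate, the black line is the mean over 4 replicates and the dotted line a TPM of 1. MCL1 lies above every other member in each replicate, and BCL2 is the one member below the dotted line.

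Within each replicate MCL1 exceeded BCL2L1 per length by a ratio of 2.90, 1.38, 1.89 and 1.86 in replicates 1 to 4. The Clopper-Pearson 95% intervals, counting error only, ran from 1.33 to 1.44 in replicate 2 and from 2.83 to 2.98 in replicate 1, so the ratio differed between libraries by more than counting error. The mean difference of log2(TPM + 1) was 0.95 ± 0.44 (SD, n = 4) and positive in 4 of 4 replicates (exact sign-flip permutation, two-sided, p = 0.125, adjusted over the 7 pairs compared p = 0.146). With 4 replicates 0.125 is the smallest p this test can give, so no pair could pass 0.05. Without replicate 1 the difference between MCL1 and BCL2L1 was 0.75 ± 0.25 (SD, n = 3). MCL1 exceeded BCL2 by 542 to 1662 times per length and BCL2L1 exceeded BCL2 by 253 to 1204 times. On the log2(TPM + 1) scale, which understates folds of low genes, these differences were 7.43 ± 0.23 and 6.48 ± 0.50 (SD, n = 4), each positive in 4 of 4 replicates.

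BCL2L1 overlaps 1903 bases of the lncRNA ABALON on the opposite strand, and 34.3% of the 50-base stretches of its transcript also occur in ABALON. ABALON had 59 counts in replicate 1 and 1351, 1031 and 870 in replicates 2 to 4, which is 0.833, 36.8, 31.8 and 34.5% of the BCL2L1 count. Whether the counting used strand is not given in the sources used here, so reads of the pair cannot be told apart, and the part of this overlap in the low BCL2L1 value of replicate 1 was not tested. No 50-base stretch of the MCL1 or BCL2 transcript was shared with another gene.

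The effectors were at similar levels, and replicate 1 was the lowest for both. BAX (chr19:49458117-49465055, plus strand), which moves from the cytosol to mitochondria when activated, had a TPM of 40.05, 95.4, 114 and 103 and a mean of 88.3 ± 33.1 (SD, n = 4). Without replicate 1 it was 104 ± 9.54 (SD, n = 3), so most of its spread came from that library. BAK1 (chr6:33540323-33548070, minus strand), which sits in the mitochondrial membrane, had a TPM of 50.8, 119, 94.9 and 72.2 and a mean of 84.1 ± 29.2 (SD, n = 4). Without replicate 1 it was 95.2 ± 23.2 (SD, n = 3). With the exon union as the length of every gene it was 132 ± 44.7 (SD, n = 4), though BAK1 itself moved only from 2193 to 2212 bases. BAK1 shares 14.6% of its 50-base stretches with other genes, mainly its pseudogene copy BAK1P1, which had 11 to 116 counts against 1180 to 2709 for BAK1.

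BAX and BAK1 did not differ beyond their spread. The ratio of BAX to BAK1 per length was 0.788, 0.804, 1.21 and 1.43 in replicates 1 to 4, with BAK1 higher in replicates 1 and 2 and BAX higher in 3 and 4. The mean difference of log2(TPM + 1) was 0.03 ± 0.42 (SD, n = 4), ranging from -0.34 to 0.51 (exact sign-flip permutation, two-sided, p = 1). The order of the pair rests on the length given to BAX: with the union of annotated exons, 2587 bases in place of the deposited 1305, the difference was -0.93 ± 0.42 (SD, n = 4). Leaving out replicate 3 or replicate 4 also turned its sign, to -0.046 and -0.13.

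Among the BH3-only genes the levels fell into a high set and a low set. BAD, PMAIP1 and BID had mean TPM from 59.9 to 136, and BCL2L11 and BBC3 had 10.6 and 7.23. BAD (chr11:64037300-64052176, minus strand), which is held in the cytosol when survival kinases phosphorylate it, had a TPM of 138, 123, 142 and 142. Its mean of 136 ± 8.82 (SD, n = 4) had the smallest coefficient of variation of the 10 members, 6.48%. BAD overlaps 366 bases of GPR137 on the opposite strand and shares 25.6% of its 50-base stretches with it, and GPR137 had 28.9 to 72.2% of the BAD count.

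PMAIP1 (chr18:57567192-57571538, plus strand), whose product NOXA binds mainly MCL1, had a TPM of 67.2, 137, 162 and 63.0, a mean of 107 ± 49.6 (SD, n = 4). Replicates 2 and 3 were high and 1 and 4 low, with a gap between the pairs and a highest over lowest ratio of 2.57. The 10 interferon-induced genes on the lists had a summed TPM of 295, 7713, 8196 and 420 in replicates 1 to 4, with the same replicates high. The share of all genes with this split was not counted. It also occurred outside that list, as in TNFRSF10A of the death receptor list with 23.4, 74.1, 61.2 and 29.9. The summed TPM of the 4 immune cell markers was 8.31, 43.9, 38.2 and 16.1, of which CD68 was nearly the whole, while PTPRC had 3 counts in replicate 1 and 0 in the others. The part of these differences between libraries in the PMAIP1 values was not tested.

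BID (chr22:18216906-18257431, minus strand), which is cut by caspase 8 and so links death receptors to mitochondria, had a TPM of 43.1, 56.2, 85.5 and 55.05, a mean of 59.9 ± 18.1 (SD, n = 4). Replicate 3 was its highest and replicate 1 its lowest. BCL2L11 (chr2:111878491-111926022, plus strand), which encodes the activator BIM, had a TPM of 9.94, 13.1, 7.58 and 11.6, a mean of 10.6 ± 2.37 (SD, n = 4). Replicate 3 was its lowest, the reverse of BID. Of its 50-base stretches 13.1% also occur in MIR4435-2HG.

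BBC3 (chr19:47724079-47736023, minus strand), which encodes PUMA, had a TPM of 4.14, 3.16, 11.4 and 10.3 from counts of 211, 44, 214 and 160. Replicates 3 and 4 were high and 1 and 2 low, a split other than that of PMAIP1. Its mean of 7.23 ± 4.18 (SD, n = 4) carried the largest coefficient of variation of the members, 57.8%. The exact Poisson interval was 2.30 to 4.24 in replicate 2 and 9.89 to 12.99 in replicate 3, so the difference between these libraries was larger than counting error.

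**Figure D2:**
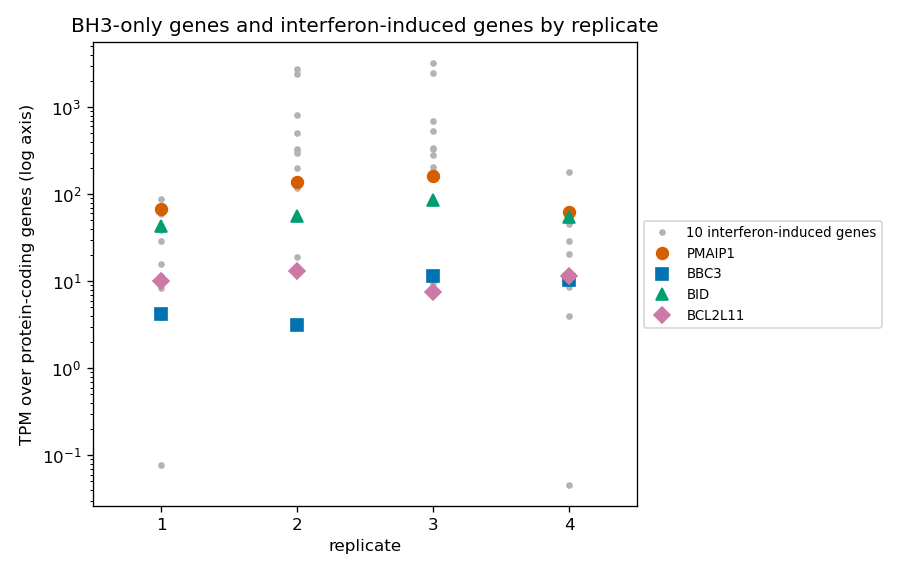
TPM (log axis) of PMAIP1, BBC3, BID and BCL2L11 in replicates 1 to 4, beside the 10 interferon-induced genes in grey. PMAIP1 lies higher in replicates 2 and 3, where the grey points also lie higher, and BBC3 in replicates 3 and 4.

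The fixed pairs of BH3-only genes kept their direction in 4 of 4 replicates. BBC3 had 0.0617, 0.0231, 0.0702 and 0.163 times the PMAIP1 level per length in replicates 1 to 4. The mean difference of log2(TPM + 1), BBC3 minus PMAIP1, was -3.75 ± 1.04 (SD, n = 4). BID exceeded BCL2L11 by 4.33, 4.29, 11.3 and 4.74 times per length, a difference of 2.38 ± 0.64 (SD, n = 4), with replicate 3 far from the others. BAD exceeded BID by 3.21, 2.20, 1.66 and 2.57 times, a difference of 1.21 ± 0.39 (SD, n = 4). Each of the 3 gave p = 0.125 in the two-sided exact permutation test, adjusted p = 0.146. Of the 7 fixed pairs, 6 kept one sign in every replicate, and BAX with BAK1 was the exception.

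In the order of the means, the members ran MCL1, BAD, BCL2L1, PMAIP1, BAX, BAK1, BID, BCL2L11, BBC3 and BCL2. The neighbouring pairs were set by this order, which came from the same 4 replicates. The direction of each mean difference was thus largely fixed beforehand, and the sign counts and p-values are no support for the order. Of the 9 neighbouring pairs, 4 kept one sign in 4 of 4 replicates: MCL1 over BAD, BAK1 over BID, BID over BCL2L11 and BBC3 over BCL2. Their mean differences of log2(TPM + 1) were 0.66 ± 0.24, 0.46 ± 0.42, 2.38 ± 0.64 and 2.55 ± 0.76 (SD, n = 4), each with p = 0.125 in the exact permutation test and 0.281 after adjustment over the 9. The other 5 did not differ beyond their spread: BAD and BCL2L1 (0.29 ± 0.48), BCL2L1 and PMAIP1 (0.17 ± 0.54), PMAIP1 and BAX (0.26 ± 0.65), BAX and BAK1, and BCL2L11 and BBC3 (0.62 ± 1.01). Neighbours from BAD to BAK1 were therefore not separated with the deposited lengths. With the union of exons as length, BAD minus BCL2L1 turned to -0.21 ± 0.48, and PMAIP1 minus BAX was 1.03 ± 0.65 with one sign in 4 of 4 replicates (SD, n = 4; exact permutation p = 0.125). PMAIP1 minus BAX was 0.58 ± 0.13 (SD, n = 3) without replicate 4.

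Summed by role, the guardians were above the effectors in 4 of 4 replicates. The summed TPM of the 3 guardians was 338, 391, 310 and 288 in replicates 1 to 4, that of the 2 effectors 90.9, 214, 209 and 175, and that of the 5 BH3-only genes 262, 332, 408 and 282. The guardian sum was 3.72, 1.83, 1.48 and 1.64 times the effector sum, with the highest ratio in replicate 1, where both effectors were lowest. The difference of log2(summed TPM + 1) was 1.01 ± 0.60 (SD, n = 4; exact sign-flip permutation, two-sided, p = 0.125, adjusted over the 3 pairs of roles p = 0.188). Without replicate 1 this difference was 0.71 ± 0.15 (SD, n = 3). BH3-only genes exceeded effectors by 0.95 ± 0.41 (SD, n = 4), with the same p over 4 replicates, and by 0.76 ± 0.18 without replicate 1 (SD, n = 3). Guardians and BH3-only genes did not differ beyond their spread, 0.06 ± 0.33 (SD, n = 4; exact permutation p = 0.875), and the BH3-only sum was the higher in replicate 3. The difference moved with the length used: it was 0.42 ± 0.33 with the exon union and 1.07 ± 0.35 with read counts without length correction (SD, n = 4). These sums cover the 10 members only and leave out other family genes of the roles, such as BCL2L2 and BIK. They are sums of RNA, and protein was not measured in these libraries.

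**Figure D3:**
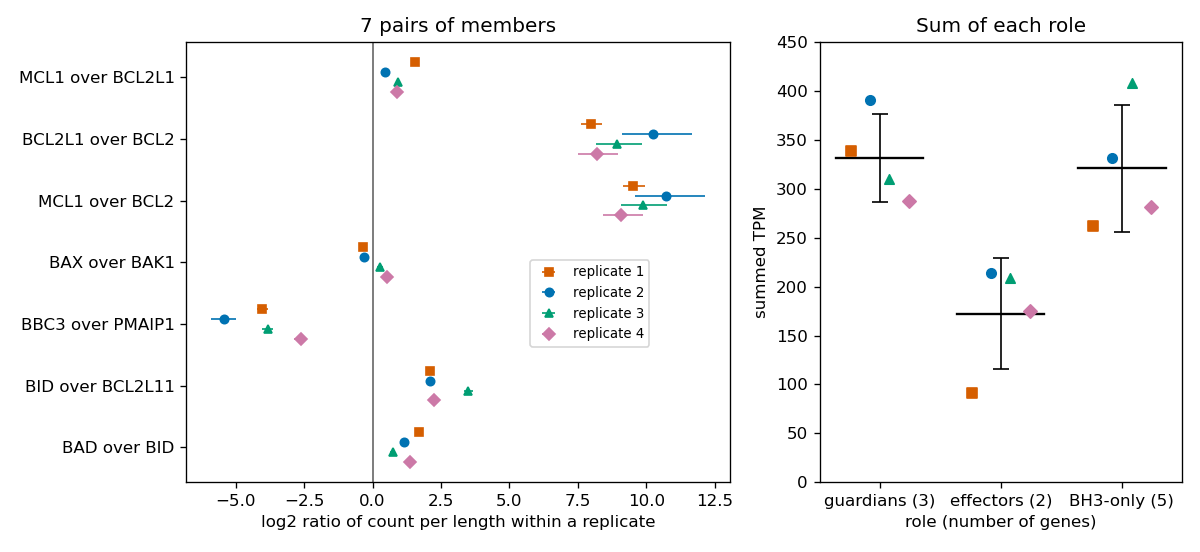
Left, log2 ratio of count per length within each replicate for the 7 fixed pairs, with Clopper-Pearson 95% intervals of the counts. Right, summed TPM of the members of each role in each replicate, with the mean (line) and SD (bar) over 4 replicates. The BAX to BAK1 ratio falls on both sides of 0, and the effector sum lies below the guardian sum in every replicate.

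How far the members varied over the replicates was set beside all genes. Over replicates 2 to 4 the highest TPM was more than 2 times the lowest in 2 of the 9 members with a mean TPM above 1, PMAIP1 and BBC3, against 30.3% of the 12165 protein-coding genes. With replicate 1 included there were 4 (PMAIP1, BAX, BAK1 and BBC3), against 64.2% of all genes. The median highest over lowest ratio in replicates 2 to 4 was 1.63 for the 9 members and 1.62 for all genes, and the median coefficient of variation over 4 replicates was 30.1 and 37.8%. Replicate 1 lay above all of replicates 2 to 4 in 1 member, MCL1, against 40.2% of all genes, and below them in 4 (BCL2L1, BAX, BAK1 and BID), against 37.4%. These counts of 9 members were not tested against the background. Over the remaining pair of libraries, 1 member varied more than 2 times without replicate 2 and 1 without replicate 4, against 23.2 and 17.7% of all genes, and 2 without replicate 3, against 7.36%. With TPM over all rows, which also counts the other RNA classes of replicate 1, 9 of the 9 members lay below in replicate 1, against 81.7% of all genes.

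Replicate 1 differed from the others with the GC content of the transcript. With the genes cut into 3 equal sets by GC content, the median log2 ratio of replicate 1 to the mean of replicates 2 to 4 was 0.74 in the set of lowest GC content, -0.07 in the middle set and -0.73 in the highest. BAX and BAK1, with 58.9 and 58.8% GC, had -1.38 and -0.91, BCL2L1 with 56.9% had -0.52, and BBC3 with 69.7% had -0.99. BAD had 0.03 at 66.3%. PMAIP1 with 37.2% GC, in the set of lowest GC content, had -0.84, while the median of that set was 0.74. In the middle set MCL1 with 45.1% had 0.29, BCL2L11 with 45.7% had -0.12 and BID with 49.7% had -0.61. The part of GC content in the low effector values of replicate 1 was not tested, and the levels without that library are given above.

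**Figure D4:**
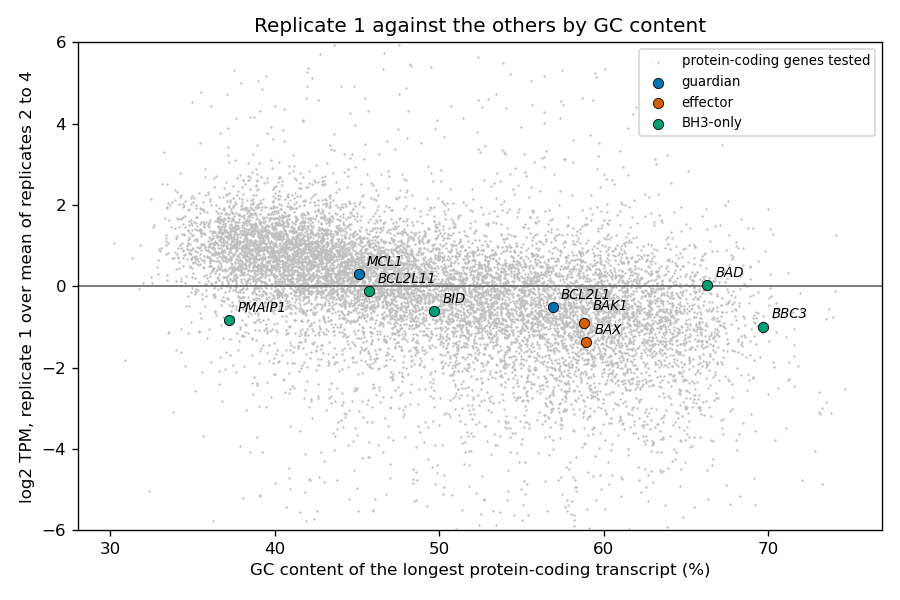
Log2 ratio of TPM in replicate 1 to the mean of replicates 2 to 4 against the GC content (%) of the longest protein-coding transcript, for all genes tested (grey; 177 of 11795 lie outside the axis) and the 9 members with a mean TPM above 1. The grey cloud slopes downward, BAX and BAK1 lie at -1.38 and -0.91, and BAD lies at 0.03 and PMAIP1 at -0.84.

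Genes around the members were read from fixed lists. A mean TPM above 1 was common, with 12165 of all 19233 protein-coding genes above it, and the list counts were not tested against that share. Of the 13 other BCL2 family genes, 12 were listed as protein-coding and 9 had a mean TPM above 1, and the median of these 9 was 37.3 against 88.3 for the 9 members and 24.5 for all genes with a mean above 1. The highest were BCL2L13, a mitochondrial relative, with 62.7 ± 7.59, BIK, a further BH3-only gene, with 61.4 ± 13.7, and BCL2L12 with 53.8 ± 26.5 (SD, n = 4). The guardian BCL2A1 and the relatives BCL2L14 and BCL2L15 had means of 0.229, 0.130 and 0.0130, each with a count of 0 in at least 1 replicate. BNIP3 is typed otherwise than protein-coding in the files, with 173, 461, 274 and 231 counts, and has no TPM here.

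Downstream of the mitochondrion all 11 genes of the apoptosome and caspase list had a mean above 1, with a median of 37.0. VDAC2, the outer membrane channel that holds BAK1, led with 289 ± 51.5, followed by ENDOG, a mitochondrial nuclease, with 107 ± 33.2 and CYCS, cytochrome c, with 91.1 ± 29.9 (SD, n = 4). Of the 6 inhibitors of apoptosis, some of which bind caspases, 5 had a mean above 1. BIRC5 (survivin) stood at 111 ± 17.2, BIRC2 at 48.0 ± 33.5 and BIRC3 at 32.5 ± 20.5 (SD, n = 4), and BIRC7 had 0 or 1 counts in each library. Without replicate 1 BIRC2 stood at 32.1 ± 12.7 (SD, n = 3). BIRC3 varied more than 4 times over replicates 2 to 4, with a TPM of 51.3, 12.7 and 49.0.

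Of the 12 death receptor genes, which feed into BID, 11 had a mean above 1. The adaptor FADD had 135 ± 32.1, the receptor TNFRSF1A 129 ± 52.8 and the ligand TNFSF10 (TRAIL) 121 ± 113 (SD, n = 4), or 65.2 ± 22.0 without replicate 1 (SD, n = 3), while the ligand FASLG had 0 counts in all 4 libraries. All 13 genes that control the members had a mean above 1. Among the highest were the stress factor ATF4 with 418 ± 144 and AKT1, the kinase that phosphorylates BAD, with 135 ± 32.6 (SD, n = 4). TP73, a transcription factor, varied more than 4 times over replicates 2 to 4, with a TPM of 2.75, 1.45 and 7.73. All 10 interferon-induced genes had a mean above 1 and varied more than 4 times over replicates 2 to 4, with ISG15, IFI6 and IFI27 the highest at means of 1538, 1225 and 375. The list was chosen with earlier results of these data known, and the share of all genes above 4 times was not counted, so this count is no finding. The highest over lowest ratio was 4.42 for IFIT2, and IFIT3, OAS1, IFIT1, MX1 and IFI44L had 9.12, 16.1, 19.6, 40.6 and 411.

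**Figure D5:**
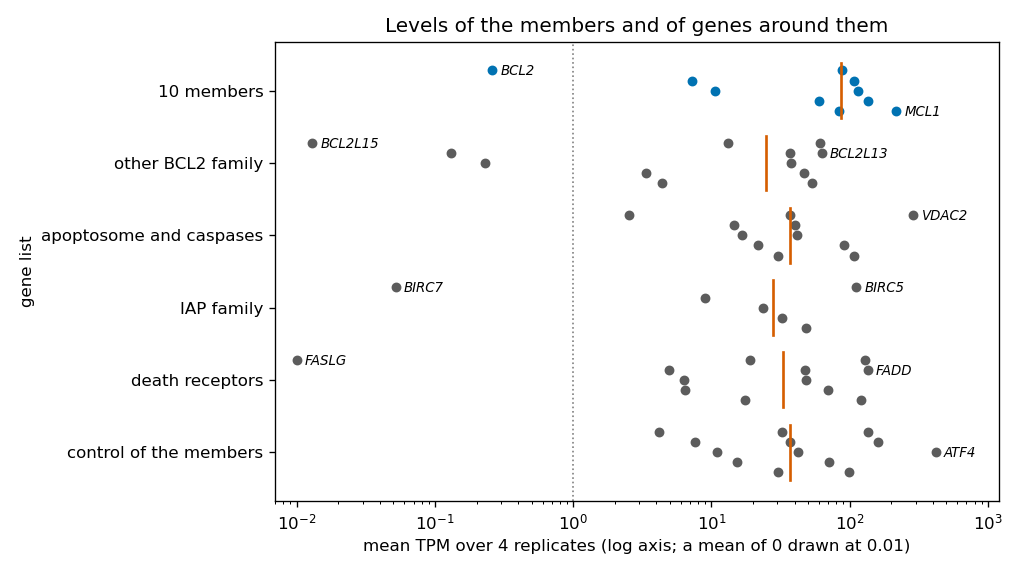
Mean TPM over 4 replicates (log axis) of the 10 members (blue) and of the genes of 5 lists (grey); each point is 1 gene, the orange line is the list median and the dotted line a TPM of 1. The member points lie mostly near 100, apart from BCL2L11, BBC3 and BCL2.

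The genes most like the leading member of each role were those with the smallest root mean square difference of log2(TPM + 1) over the 4 replicates. For MCL1 they were APH1A, MTA2 and TMED2, with differences of 0.07, 0.08 and 0.09. For BAX they were PSMB2, SZRD1 and GPS1, with 0.11, 0.13 and 0.14. For BAD they were KIF22, SERP1 and KNSTRN, with 0.06, 0.08 and 0.08. Over 4 replicates this measures likeness in level and pattern only.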

How the data were processed

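RNA of untreated HaCaT cells was sequenced in 4 libraries. The authors deposited raw read counts per gene for each library with a gene length and hg19 position, RPKM for replicates 1 and 2, and TPM over all rows for replicates 3 and 4. The deposited RPKM and TPM were recomputed from count and length with 0 rows different and were not otherwise used. The submitters' processing notes name hg19, HISAT2, TopHat2, Bowtie2 and HISAT; the counting program, annotation and strand are not given in the sources used here.

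TPM was computed over protein-coding rows from the deposited counts and lengths, because the authors' unit differs between replicates. Within-replicate differences of log2(TPM + 1) were tested by exact sign-flip permutation (two-sided) and adjusted by Benjamini-Hochberg within the 7 fixed, 9 neighbouring and 3 role pairs. Low genes appear less changed on this scale than they are. Counts were given exact Poisson intervals and count ratios Clopper-Pearson intervals, both at 95%. Genes with a mean TPM above 1 were taken for counts over all genes. The calls were tested on simulated data. Libraries were not paired with each other, as there is 1 group, and no 2 libraries had identical counts. The members, lists and tests were chosen with earlier results of these data known.

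Named were all 10 members, of each list the 3 genes with the highest mean TPM, those with a mean under 1 and those above 1 that varied more than 4 times over replicates 2 to 4, and the 3 genes most like the leading member of each role. Some genes that this rule names are not reported here. Marker genes, some other family genes of the 3 roles and the genes of overlaps, shared sequence and outlying values were also named. The alternatives were pseudocounts of 0.1 and 0, no length correction, the exon union as length, TPM over all rows, upper quartile scaling, the TMM factors of edgeR, other limits of detection and leaving out each replicate. The interval and limit of 3 counts cover counting error only. GC content and exon unions came from GENCODE release 29 by gene symbol, found for 97.7% of the protein-coding rows. Calculations used edgeR 4.0.16 in R 4.3.3, and SciPy 1.17.1, NumPy 2.4.6, pandas 2.3.3 and matplotlib 3.10.9 in Python 3.11.15.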

Additional observations from a re-analysis of the deposited data

Results flagged for a closer look

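Of 54 sets of 4 values examined, 6 had 1 replicate far from the other 3 by Dixon's test, where chance flags about 1 in 20. The BID to BCL2L11 difference of log2(TPM + 1) was 3.33 in replicate 3 against 2.01, 2.02 and 2.15 in replicates 1, 2 and 4. ENDOG reached a TPM of 156 in replicate 3, while the other replicates lay between 84.1 and 94.7. The other 4 were set by replicate 1. BCL2L12 had a TPM of 14.3 there against 64.8 to 70.8, VDAC2 366 against 260 to 267, TNFSF10 288 against 40.1 to 80.9 and AKT1 86.6 against 145 to 157. No level of a member was flagged in this way.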

How the results depend on the processing

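No pairing of libraries between groups was possible because the libraries form 1 group. The differences between genes or roles were taken within each replicate. MCL1 was highest and BCL2 lowest of the 10 members in every replicate under the 10 alternatives run for this order. Only read counts without length correction and the exon union as length could change it. Pseudocounts and rescaling of a library keep the order, and leaving out a replicate only drops its order. Of the 17 differences between members or roles, 14 kept their direction, the sign of the mean, under every alternative. These include BCL2L1 minus PMAIP1, PMAIP1 minus BAX and BCL2L11 minus BBC3, which did not differ beyond their spread. BCL2L1 minus PMAIP1 was 0.011 ± 0.52 (SD) without replicate 4. With read counts without length correction, BAD minus BID was 0.11 ± 0.39 and BAK1 minus BID 0.18 ± 0.42 (SD, n = 4). Pseudocounts and rescaling of a library cannot turn a sign within a replicate. The differences that changed direction were as follows. BAX minus BAK1 was -0.70 with read counts without length correction, -0.93 with the union of exons as length, and -0.13 to 0.15 when 1 replicate was left out. BAD minus BCL2L1 was -1.16 with read counts without length correction and -0.21 with the union of exons. Guardians minus BH3-only genes was -0.044 to 0.21 when 1 replicate was left out, below 0 without replicate 1 or 2, and 0.42 with the union of exons and 1.07 with read counts. TPM over all rows moved the median log2 ratio of replicate 1 to the others over all genes from near 0 to -1.54, since it counts the other RNA classes of that library; then 9 members varied more than 2 times over 4 replicates, 9 lay below and 0 above in replicate 1, against 87.8, 81.7 and 3.75% of all genes. Leaving out 1 replicate gave 1 to 2 members varying more than 2 times over replicates 2 to 4, and 2 to 4 over all replicates, while the share of all genes ran from 7.36 to 29.9% and from 29.9 to 59.4%. Without replicate 1 no count of members above or below it could be given. The 6 list counts each stayed within 1.5 times their value under the 8 alternatives run for them. Depth limits BCL2, at 6 to 55 counts, the most.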
